A study of Homo sapiens with 6 samples.

Results

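The Hippo pathway and the transcription that it restrains were examined in NCI-N87 gastric cancer cells with SCAMP1 knockdown. The 10 genes described here are the protein-coding rows of the deposited gene table named YAP1, WWTR1, TEAD1, TEAD4, LATS2, CTGF, CYR61, ANKRD1, AMOTL2 and AJUBA, out of 58735 genes in all. All 10 were found by name, each in 1 row. NCI-N87 is an established cell line of human gastric carcinoma origin. The shNC cells carried the control lentivirus, which the paper calls shCtrl and describes as the empty vector, and the shScamp1 cells carried a lentivirus with an shRNA against SCAMP1 (shS1#1 in the paper). Both are stable populations that were selected with puromycin (2 μg/ml). Per the labels, RNA was harvested from both at about the same confluence, and 3 libraries were sequenced per group. A second shRNA was not analysed here, so shRNA and knockdown cannot be told apart. The labels call the 3 libraries biological replicates, but do not state whether they came from separate infections. If they did not, the p-values measure only the spread between these libraries.

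In the Hippo pathway, the kinases MST1 and MST2 activate the kinases LATS1 and LATS2, which phosphorylate the coactivators YAP (gene YAP1) and TAZ (gene WWTR1) and keep them out of the nucleus. Unphosphorylated YAP and TAZ enter the nucleus and bind TEAD transcription factors, which recognize DNA, and this induces genes such as CTGF, CYR61, ANKRD1, AMOTL2 and LATS2 itself. The last 2 of these encode inhibitors of YAP, so that the pathway feeds back on itself. Transcript levels of YAP1 and WWTR1 do not measure this control, which acts on the proteins. In epithelial cells the pathway is known for responding to cell density, cell shape and adhesion.

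The DNA words that TEAD factors prefer were looked for first, because YAP and TAZ reach DNA through TEAD factors. RefSeq promoter windows (GRCh38.p14, 250 bases before to 50 bases after a transcription start) were matched for 7 of the 10 genes, with 10 windows in all; TEAD1, TEAD4 and CYR61 were not matched. The word searched was GGAATG, or CATTCC on the other strand. It occurred in 14.0% of all 35116 windows of this length, in 1.37% of them 2 or more times and in 0.128% of them 3 or more times. Of the 7 genes, 6 held it in at least 1 window: YAP1, LATS2, CTGF, ANKRD1, AMOTL2 and AJUBA. Counted by window, as in the background of 14.0%, 6 of the 10 windows held it. AMOTL2 and AJUBA held it in 1 of their 2 windows each, and WWTR1 in neither of its 2. A word of 6 letters is a description of the sequence and not evidence of binding. Printed here are the 250 bases before the start for the target genes with the most matches and for the target with the most stable difference in expression, read 5′ to 3′ in the direction of transcription, with the searched word in capitals. All 3 genes lie on the reverse strand. CTGF (RefSeq symbol CCN2, chr6:131951373-131951622) held the word at -169, -104 and -95 from the start, ANKRD1 (chr10:90921088-90921337) at -220 and -128, and the AMOTL2 window shown (chr3:134374448-134374697) held CATTCC at -69. The AP-1 word TGANTCA, which has the same form on both strands and was present in 7.71% of all windows, was found in the windows of these genes only in ANKRD1, as TGATTCA at -195.

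CTGF: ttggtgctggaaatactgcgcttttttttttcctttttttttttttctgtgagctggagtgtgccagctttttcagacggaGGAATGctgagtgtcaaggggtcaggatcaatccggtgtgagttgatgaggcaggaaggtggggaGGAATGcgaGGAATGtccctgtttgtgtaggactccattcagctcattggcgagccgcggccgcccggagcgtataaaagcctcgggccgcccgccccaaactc

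ANKRD1: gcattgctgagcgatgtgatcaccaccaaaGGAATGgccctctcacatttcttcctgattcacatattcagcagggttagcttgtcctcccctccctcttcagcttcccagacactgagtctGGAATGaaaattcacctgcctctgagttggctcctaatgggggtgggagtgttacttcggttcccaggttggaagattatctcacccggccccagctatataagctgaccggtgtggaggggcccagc

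AMOTL2: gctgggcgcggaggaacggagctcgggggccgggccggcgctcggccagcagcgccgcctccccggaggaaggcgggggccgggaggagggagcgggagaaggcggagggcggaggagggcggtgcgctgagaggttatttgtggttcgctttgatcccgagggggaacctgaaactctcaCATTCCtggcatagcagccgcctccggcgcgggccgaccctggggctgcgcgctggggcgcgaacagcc

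The deposited values are FPKM (fragments per kilobase of gene length, scaled by a size of the library), so levels of different genes can be compared within a library. Each library held between 14311769 and 15988700 reads on genes, as recovered from the FPKM values. In the shNC libraries the library size implied by the FPKM values was above the reads on genes, as in replicate 1 (15856055 against 15232814). In the shScamp1 libraries it was below them, as in replicate 2 (13689669 against 14311769). The scaling was thus not by the plain total of reads on genes, and it differed between the groups. Epithelial markers were abundant. Over 8 genes they summed to 5536 to 5822 FPKM in shNC libraries and to 9250 to 10160 FPKM in shScamp1 libraries. Of the 8, 6 passed the test described below, all higher, beside 14.0% of all genes tested, 8.82% higher. Markers of fibroblasts summed to 0.554 to 0.70 FPKM in shNC and 0.561 to 0.785 FPKM in shScamp1 libraries over 8 genes, with COL1A2, DCN and LUM at 0 in all libraries. Those of endothelial cells summed to 0.324 to 0.561 and 0.586 to 0.832 FPKM over 6 genes, and those of leukocytes to 1.76 to 2.02 and 1.48 to 2.86 FPKM over 6 genes. In bulk RNA, fewer cells with a transcript and less of it per cell cannot be told apart. The library shScamp1 replicate 2 stood apart, with a mitochondrial share of 9.21% of reads against 6.09% to 6.78% in the other 5 libraries. SCAMP1 itself was at 12.6, 12.1 and 11.5 FPKM in shNC and at 1.70, 1.37 and 1.99 FPKM in shScamp1 libraries (log2 fold change -2.78, limma adjusted p = 0.000248), so the labels and the targeted transcript matched in all 6.

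Differences were tested with limma on log2(FPKM + 0.1) over the 15556 genes that averaged 0.5 FPKM or more, with Benjamini-Hochberg adjustment over all of them, and genes with an adjusted p under 0.05 are said to have passed. On that scale the change of a weakly expressed gene is understated. Among the 10 genes 3 passed, AMOTL2, TEAD1 and ANKRD1, all higher in shScamp1 cells, whereas 14.0% of all genes tested passed, 8.82% higher and 5.17% lower. Only ANKRD1 also had a log2 fold change above 1, a criterion met by 3.16% of all genes. The 14.0% includes genes of other biotypes, whereas the 10 genes and the genes of all lists described here are protein-coding. In a fit of 11529 protein-coding genes alone, 4 of the 10 genes passed, all higher, beside 22.8% of all genes in that fit. The median log2 fold change of the 10 genes was 0.25, against -0.02 for all genes tested. All 10 genes reached the filter, but ANKRD1 reached it only through its level in shScamp1 cells and had to differ to be tested, so the count and the median are a description. The FPKM ranges of the groups did not overlap for 8 of the 10 genes, as for 41.4% of all genes tested. For any gene on its own, an exact permutation test of 3 libraries against 3 cannot give a p below 0.1, and it gave 0.1 for each of these 8.

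**Figure D1:**
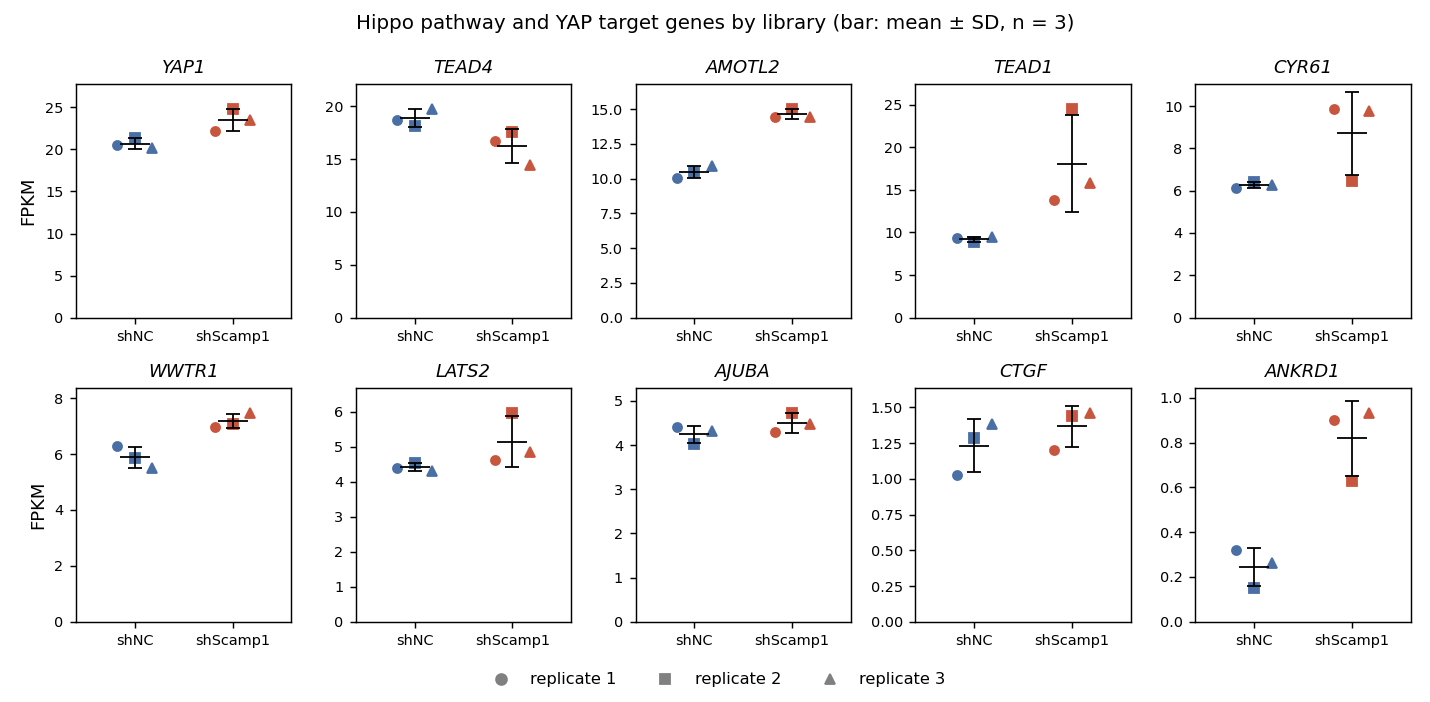
Expression of the 10 genes in each library (y axis, FPKM from 0; blue, shNC; red, shScamp1; circles, squares and triangles, replicates 1, 2 and 3; bars, mean ± SD, n = 3), in order of the mean in shNC cells. AMOTL2 was separated with little spread. WWTR1 and YAP1 did not overlap either, but their groups lay closer together. YAP1 was at most 21.4 FPKM in shNC and at least 22.2 FPKM in shScamp1 libraries. In TEAD1 and CYR61 shScamp1 replicate 2 (square) lay far from the other shScamp1 libraries, at 24.5 and 6.46 FPKM.

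In shNC cells the levels ranged from YAP1 at 20.7 ± 0.653 FPKM to ANKRD1 at 0.244 ± 0.0849 FPKM (SD, n = 3 each). YAP1 was followed by TEAD4 (18.9 ± 0.812), AMOTL2 (10.5 ± 0.414), TEAD1 (9.22 ± 0.296), CYR61 (6.27 ± 0.132), WWTR1 (5.89 ± 0.383), LATS2 (4.42 ± 0.112), AJUBA (4.25 ± 0.190) and CTGF (1.23 ± 0.185 FPKM). The ranges of neighbours in this order overlapped only between CYR61 and WWTR1 and between LATS2 and AJUBA. YAP1 lay above 86.1% of all genes tested and CTGF above 22.0%, so of the widely used readouts of YAP and TAZ, CYR61 was well expressed in these cells and CTGF and ANKRD1 were low.

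The coactivators did not pass the test in the main setting. YAP1 (ENSG00000137693, chromosome 11 from 102110461 to 102233423, forward strand) was at 20.5, 21.4 and 20.1 FPKM in shNC libraries and at 22.2, 24.9 and 23.5 FPKM in shScamp1 libraries. Every shScamp1 value was above every shNC value, but the log2 fold change was only 0.19 (95% confidence interval 0.02 to 0.35, adjusted p = 0.127 by limma). WWTR1, which encodes TAZ (ENSG00000018408, chromosome 3 from 149517235 to 149736714, reverse strand), was at 6.28, 5.86 and 5.52 FPKM in shNC libraries and at 6.97, 7.09 and 7.47 FPKM in shScamp1 libraries. These ranges did not overlap either, and the log2 fold change was 0.28 (95% confidence interval 0.10 to 0.47, adjusted p = 0.0577 by limma). WWTR1 lay close to the threshold: with the same libraries it passed under a filter of 1 FPKM (limma adjusted p = 0.0485), among protein-coding genes alone (0.0422) and with voom (0.0442), and its adjusted p ranged up to 0.192 over all alternatives. Rises above about 0.35 for YAP1 and 0.47 for WWTR1 on the log2 scale thus lay outside the intervals. With FPKM rescaled to the same sum in each library, the log2 fold changes were 0.16 for YAP1 and 0.26 for WWTR1. Neither passed in that setting (limma adjusted p = 0.192 and 0.0954). YAP1 was the more abundant coactivator in every library, by 3.27, 3.65 and 3.65 times in shNC and by 3.19, 3.50 and 3.15 times in shScamp1 libraries. The ratio of YAP1 to WWTR1 was not distinguishable between the groups (exact two-sided permutation test, p = 0.2).

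The TEAD genes encode the DNA-binding partners of YAP and TAZ. TEAD1 (ENSG00000187079, chromosome 11 from 12674591 to 12944483, forward strand) was at 9.30, 8.89 and 9.46 FPKM in shNC libraries and at 13.9, 24.5 and 15.8 FPKM in shScamp1 libraries. All shScamp1 libraries were above all shNC libraries, and replicate 2 was far above the other two. TEAD1 rose 1.89-fold (log2 fold change 0.92 with SE 0.21, limma adjusted p = 0.0338). Without shScamp1 replicate 2 the log2 fold change was 0.68 (adjusted p = 0.00179 by limma). The call was lost in 4 of the 6 fits that left out 1 library, those without any of the shNC libraries or without shScamp1 replicate 3 (highest adjusted p = 0.121 by limma), although the log2 fold change stayed at 0.68 or more.

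TEAD4 (ENSG00000197905, chromosome 12 from 2959330 to 3040673, forward strand), the most abundant TEAD transcript in shNC cells, was at 18.7, 18.2 and 19.8 FPKM there and at 16.7, 17.6 and 14.4 FPKM in shScamp1 libraries. It was the only one of the 10 genes with a lower mean in shScamp1 cells, and its ranges did not overlap. The log2 fold change of -0.22 did not pass (SE 0.09, limma adjusted p = 0.160), but passed without shScamp1 replicate 2 (log2 fold change -0.28, adjusted p = 0.0415). That was the only 1 of 17 alternative settings in which TEAD4 passed. After removal of a trend with gene length from each library, described below, its log2 fold change was -0.12 (limma adjusted p = 0.559).

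The other TEAD genes complete the family. TEAD2 was at 8.61, 7.15 and 7.62 FPKM in shNC libraries and at 3.31, 2.77 and 3.33 FPKM in shScamp1 libraries, so that every shScamp1 library was below the lowest shNC library. TEAD2 fell (log2 fold change -1.29 with SE 0.11, limma adjusted p = 0.00128) and passed in all 6 fits that left out 1 library. TEAD3, at 9.28 ± 0.456 FPKM in shNC and 9.96 ± 0.305 FPKM in shScamp1 cells (SD, n = 3 each), overlapped between the groups and did not pass (log2 fold change 0.10, adjusted p = 0.362 by limma).

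As a share of the summed FPKM of the 4 TEAD genes, TEAD1 took 20.4% ± 0.0731 in shNC and 37.6% ± 6.90 in shScamp1 cells (SD, n = 3 each). TEAD2 took 17.2% ± 1.48 and 6.74% ± 1.44, and TEAD4 took 41.8% ± 0.638 and 34.4% ± 3.05. The shares of these 3 genes did not overlap between the groups (p = 0.1 for each by exact permutation, two-sided, which 3 libraries against 3 cannot go below). Without shScamp1 replicate 2 the shScamp1 means were 33.9% for TEAD1, 7.57% for TEAD2 and 35.5% for TEAD4. The ratio of TEAD1 to TEAD4 was 0.496, 0.489 and 0.478 in shNC libraries and 0.829, 1.40 and 1.10 in shScamp1 libraries. TEAD1 therefore exceeded TEAD4 in 2 of the 3 shScamp1 libraries and in none of the shNC libraries. Replicate 2 (1.40) was 1 of these 2, and without it the mean ratio in shScamp1 cells was 0.963. The summed level was 45.2 ± 1.48 FPKM in shNC and 47.4 ± 6.17 FPKM in shScamp1 cells (SD, n = 3 each), with overlapping ranges (exact permutation test, p = 0.9), and 43.8 FPKM on average in shScamp1 cells without replicate 2. A difference in the sum was thus not detectable.

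**Figure D2:**
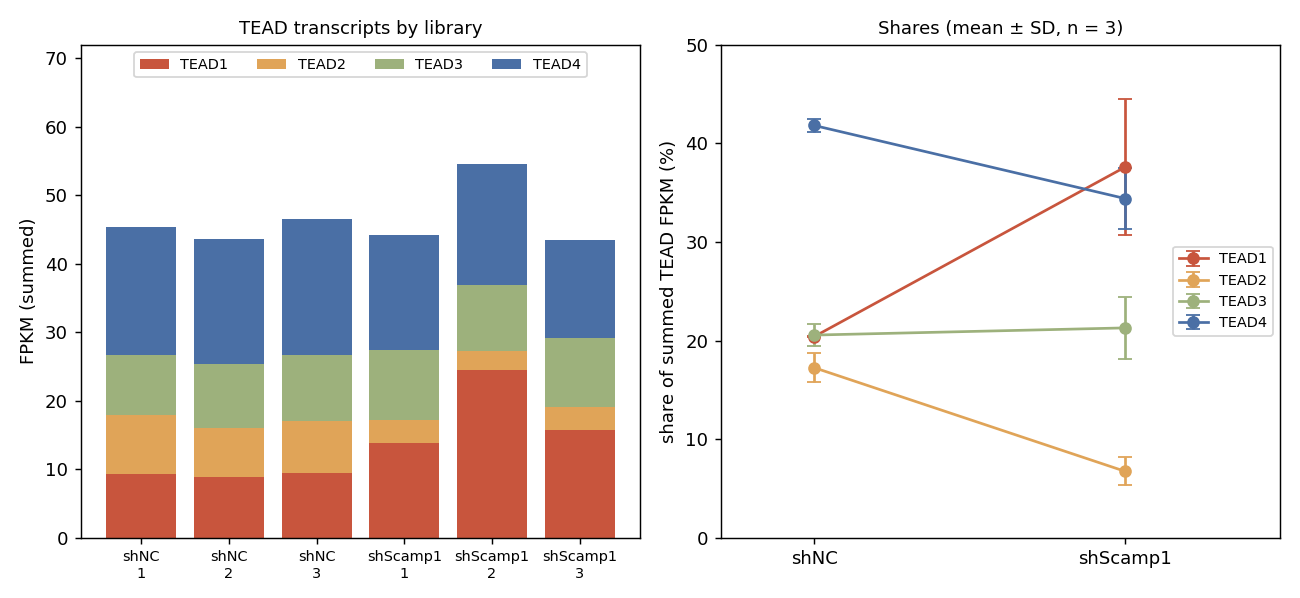
Left, FPKM of the 4 TEAD genes stacked for each library (y axis from 0, in FPKM). Right, share of each gene in that sum in percent (points, mean; bars, SD, n = 3): TEAD1 was at 20.4% in shNC and 37.6% in shScamp1 cells, TEAD2 at 17.2% and 6.74%, and TEAD3 at 20.6% and 21.3%.

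Vestigial-like proteins are cofactors that bind TEAD factors at surfaces that YAP and TAZ also use. VGLL1, the most abundant of them, was at 22.4, 21.1 and 22.6 FPKM in shNC libraries and at 49.1, 34.5 and 44.7 FPKM in shScamp1 libraries. The groups were widely separated, and VGLL1 rose by 0.94 on the log2 scale (SE 0.13, limma adjusted p = 0.00796), a call kept in all 6 fits that left out 1 library. VGLL4, an inhibitor of YAP, was at 6.61 ± 0.318 FPKM in shNC and 6.24 ± 0.530 FPKM in shScamp1 cells (SD, n = 3 each) and did not pass (log2 fold change -0.08, adjusted p = 0.552 by limma). VGLL2 had no reads and VGLL3 had at most 2 reads in a library. In the list of TEAD factors and cofactors other than the 10 genes, 4 of 6 genes were tested, of which VGLL1 was higher and TEAD2 lower. Of all genes tested 14.0% passed, 8.82% higher and 5.17% lower.

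Among the inhibitors, AMOTL2, an angiomotin that holds YAP at cell junctions and is itself a target of YAP, had the most stable difference of the 10 genes across the fits that left out 1 library. AMOTL2 (ENSG00000114019, chromosome 3 from 134355874 to 134375479, reverse strand) was at 10.1, 10.5 and 10.9 FPKM in shNC libraries and at 14.4, 15 and 14.5 FPKM in shScamp1 libraries. The groups were separated by far more than the spread within either. AMOTL2 rose 1.39-fold (log2 fold change 0.48 with SE 0.06, limma adjusted p = 0.00603) and passed in all 6 fits that left out 1 library (log2 fold change from 0.45 to 0.51, highest adjusted p = 0.0443). Its relatives AMOT (6.73 ± 0.122 against 7.23 ± 2.19 FPKM, SD, n = 3 each) and AMOTL1 (5.49 ± 0.142 against 6.37 ± 1.48 FPKM, SD, n = 3 each) overlapped between the groups and did not pass, with adjusted p of 0.859 and 0.462 by limma.

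LATS2, the kinase that phosphorylates YAP and is induced by it, lies on chromosome 13 from 20973032 to 21061547 on the reverse strand (ENSG00000150457). It was at 4.41, 4.54 and 4.32 FPKM in shNC libraries and at 4.62, 5.97 and 4.86 FPKM in shScamp1 libraries, with replicate 2 the highest. The ranges did not overlap, but the log2 fold change of 0.21 did not pass (95% confidence interval -0.06 to 0.47, adjusted p = 0.253 by limma). LATS1 was more abundant than LATS2 in every library and did not pass either (log2 fold change 0.36, adjusted p = 0.108). The ratio of LATS2 to LATS1 was 0.760 ± 0.0421 in shNC and 0.684 ± 0.00916 in shScamp1 cells (SD, n = 3 each) without overlap (p = 0.1 by exact permutation, two-sided).

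AJUBA, a LIM protein that holds LATS kinases at junctions, lies on chromosome 14 from 22971174 to 22982642 on the reverse strand (ENSG00000129474). It was at 4.40, 4.03 and 4.31 FPKM in shNC libraries and at 4.29, 4.73 and 4.48 FPKM in shScamp1 libraries. The groups overlapped and the log2 fold change was 0.08 (95% confidence interval -0.10 to 0.27, adjusted p = 0.509 by limma). Its relative LIMD1 was likewise not called (log2 fold change -0.11, adjusted p = 0.600). WTIP did not reach the filter, at 0.421 ± 0.0730 FPKM in shNC and 0.183 ± 0.0423 FPKM in shScamp1 cells (SD, n = 3 each).

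CYR61 and CTGF encode secreted matricellular proteins of the CCN family. CYR61 (ENSG00000142871, chromosome 1 from 85580761 to 85583962, forward strand) was at 6.14, 6.40 and 6.28 FPKM in shNC libraries and at 9.87, 6.46 and 9.77 FPKM in shScamp1 libraries. Replicates 1 and 3 were well above the shNC libraries, while replicate 2 exceeded the highest of them only narrowly. With all 6 libraries the log2 fold change of 0.44 did not pass (SE 0.17, limma adjusted p = 0.139). Without shScamp1 replicate 2 it was 0.64 and passed (SE 0.05, limma adjusted p = 0.000611), so 1 library decided the call.

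CTGF (ENSG00000118523, chromosome 6 from 131948176 to 131951373, reverse strand) was at 1.02, 1.28 and 1.38 FPKM in shNC libraries and at 1.2, 1.44 and 1.46 FPKM in shScamp1 libraries, from 38 to 50 reads per library. The groups overlapped, and no difference was detectable at this depth (log2 fold change 0.14, 95% confidence interval -0.25 to 0.54, adjusted p = 0.586 by limma). Another CCN gene, NOV, was more abundant than either, at 15.2 ± 0.753 FPKM in shNC and 12.0 ± 0.368 FPKM in shScamp1 cells (SD, n = 3 each), and fell (log2 fold change -0.34, adjusted p = 0.0239 by limma). This call was lost in 5 of the 6 fits that left out 1 library, with adjusted p up to 0.121. WISP1, WISP2 and WISP3 had at most 5 reads in a library and were not tested.

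ANKRD1, a nuclear ankyrin-repeat protein and a strongly inducible YAP target, lies on chromosome 10 from 90912096 to 90921276 on the reverse strand (ENSG00000148677). It was at 0.319, 0.152 and 0.262 FPKM in shNC libraries and at 0.900, 0.627 and 0.932 FPKM in shScamp1 libraries. These values rest on 10, 5 and 8 reads against 26, 17 and 27 reads. The groups did not overlap. The log2 fold change was 1.43 (SE 0.36, limma adjusted p = 0.0487), with the widest interval of the 10 genes (0.56 to 2.31). As its mean in shNC cells was under the filter of 0.5 FPKM, ANKRD1 was tested only because it was higher in shScamp1 cells, so its call is given as a description. With a pseudocount of 1 in place of 0.1 the log2 fold change shrank to 0.55. ANKRD1 was tested in 4 of the 6 fits that left out 1 library and passed in 1 of them, that without shScamp1 replicate 2 (adjusted p = 0.0422; highest without a shNC library, 0.128). Its relatives ANKRD2 (log2 fold change 0.23, adjusted p = 0.703 by limma) and ANKRD23, which was below the filter, had at most 25 reads in a library.

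**Figure D3:**
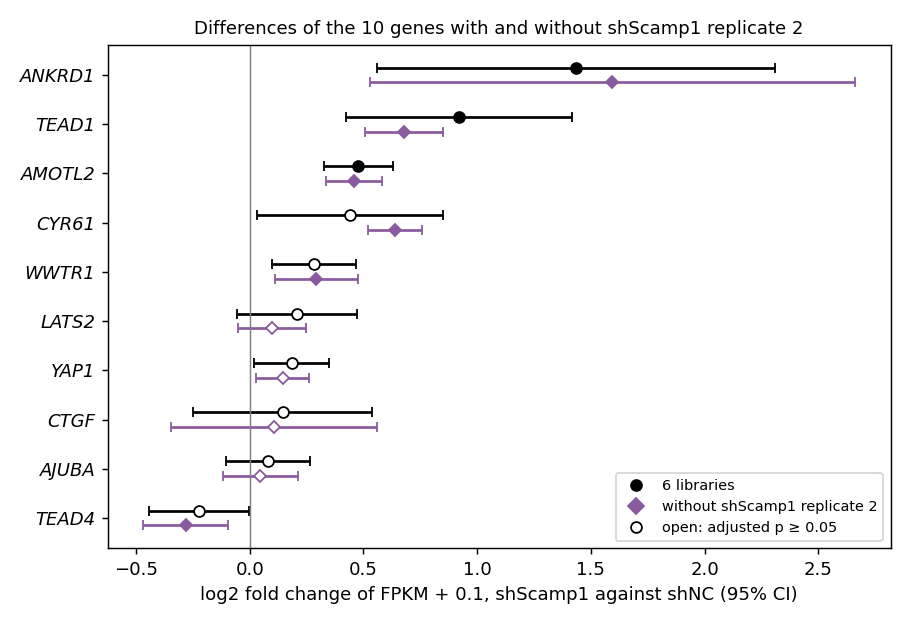
Log2 fold change of FPKM + 0.1 in shScamp1 against shNC cells (x axis) for the 10 genes, with all 6 libraries (black circles) and without shScamp1 replicate 2 (purple diamonds); bars are 95% confidence intervals and filled symbols passed an adjusted p of 0.05. With all libraries 3 genes passed; without replicate 2 CYR61, WWTR1 and TEAD4 passed as well.

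Because shScamp1 replicate 2 decided several calls, its deviation from the other shScamp1 libraries was measured. On the log2 scale it lay 0.73 above the mean of replicates 1 and 3 for TEAD1 and 0.33 above it for LATS2, and at -0.60 from it for CYR61 and -0.48 for ANKRD1. For YAP1, WWTR1, TEAD4, CTGF, AMOTL2 and AJUBA it lay between -0.03 and 0.18 from that mean. The deviation differed between classes of gene length, but not in one direction throughout. Its median was 0.03 over the 3115 shortest genes tested (41 to 1189 bases), -0.28 over the 3112 genes tested with a length of 1190 to 3056 bases, and from there it increased with length to 0.21 over the 3111 genes of 7261 to 44677 bases, whereas for shNC replicate 2 the medians were 0.01, -0.01 and 0.00 in these 3 classes. TEAD1 (10279 bases) and WWTR1 (8413 bases) belong to the longest genes, and ANKRD1 (1979), TEAD4 (2272), CTGF (2339) and CYR61 (2455 bases) to the class of 1190 to 3056 bases.

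Without this library 6 of the 10 genes passed, of which AMOTL2, ANKRD1, CYR61, TEAD1 and WWTR1 were higher and TEAD4 lower. In that fit 28.3% of all genes passed, 14.9% higher and 13.4% lower, so the background was larger as well. After removal of a trend with gene length from each library, an alternative chosen after the data were seen, 4 of the 10 genes passed, against 18.2% of all genes: AMOTL2, ANKRD1, TEAD1 and CYR61 (log2 fold change 0.53, adjusted p = 0.0198 by limma). The part that the mitochondrial share of this library plays in these results was not tested.

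**Figure D4:**
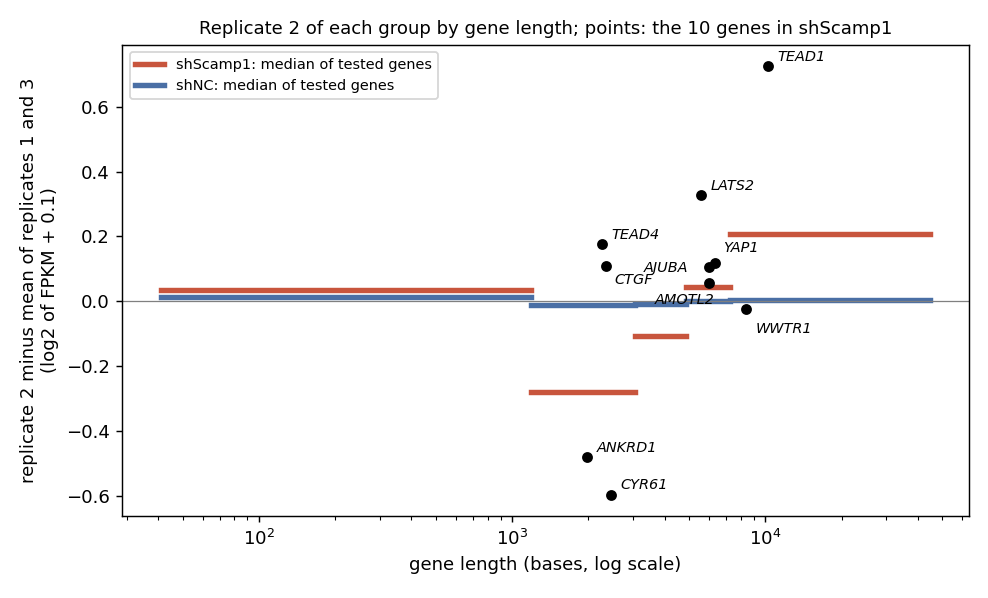
Replicate 2 minus the mean of replicates 1 and 3 (y axis, log2 of FPKM + 0.1) against gene length in bases (x axis, log scale). Bars show the median of all genes tested in each of 5 length classes for shScamp1 (red) and shNC (blue), and points the 10 genes in shScamp1: TEAD1 lay at 0.73 and CYR61 at -0.60, while the shNC medians stayed between -0.01 and 0.01.

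The kinases and scaffolds upstream of YAP and TAZ were described from a list of 43 genes, of which 38 were tested. In shScamp1 cells 5 were higher and 1 was lower, and 32 did not pass. The median log2 fold change was 0.10. It was 0.07 without shScamp1 replicate 2 and 0.04 after removal of the gene-length trend. In the main setting 6 of 38 thus passed, beside 14.0% of all genes. Among protein-coding genes alone 6 of 38 passed as well, beside 22.8% of all genes in that fit. RASSF5, whose product binds the MST kinases, was at 5.49, 5.66 and 5.35 FPKM in shNC and at 10.8, 12.6 and 10.3 FPKM in shScamp1 libraries and rose (log2 fold change 1.02, adjusted p = 0.00158 by limma). FRMD6, a FERM-domain protein at the membrane upstream of the MST kinases, was at 2.33, 2.08 and 2.06 FPKM in shNC and at 3.70, 4.33 and 3.96 FPKM in shScamp1 libraries and rose (log2 fold change 0.86, adjusted p = 0.00342). These 2 genes passed in all 6 fits that left out 1 library.

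The other calls of this list were less stable. STRN, a scaffold of the phosphatase complex that opposes the MST kinases, was higher with a log2 fold change of 0.56 (adjusted p = 0.0359 by limma). TAOK3, a kinase that can activate the MST kinases (0.52, adjusted p = 0.0436), and MAP4K5, a kinase that acts beside them on LATS (0.34, adjusted p = 0.0298), were also higher. STK4, which encodes MST1, was at 8.96, 8.51 and 9.03 FPKM in shNC and at 6.31, 7.29 and 6.79 FPKM in shScamp1 libraries and fell (log2 fold change -0.38, adjusted p = 0.0266 by limma). STRN passed in 2 of the 6 fits that left out 1 library, and TAOK3, MAP4K5 and STK4 in 1 each. STK3, which encodes MST2, was at 2.38 ± 0.00889 FPKM in shNC and 2.66 ± 0.148 FPKM in shScamp1 cells (SD, n = 3 each) and did not pass (adjusted p = 0.265). The partners SAV1, MOB1A, MOB1B and NF2 did not pass either, with log2 fold changes from -0.21 to 0.13.

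Beyond the 10 genes, 24 further readouts of YAP and TAZ were listed, of which 19 were tested, 5 were higher, none was lower and 14 did not pass, where 14.0% of all genes passed and 8.82% were higher. The median log2 fold change of the 19 was 0.41, and 0.19 without shScamp1 replicate 2. With a filter of 1 FPKM, 16 genes were tested and their median was 0.35. Among protein-coding genes alone 7 of the 19 passed, all higher, beside 22.8% of all genes in that fit. EDN1, at 0.482 FPKM on average in shNC and 0.781 FPKM in shScamp1 cells, reached the filter of 0.5 FPKM only through shScamp1 cells. It did not pass, but it enters the median, so the count and the median are a description. The list was also chosen with earlier results of these data known, among them the rise of its member NT5E. For this reason too the count and the median are a description. NT5E, which encodes the ectoenzyme CD73, was at 6.20 ± 0.189 FPKM in shNC and 49.3 ± 1.54 FPKM in shScamp1 cells (SD, n = 3 each), higher by 2.97 on the log2 scale (limma adjusted p = 3.44e-05). IGFBP3, a secreted binder of insulin-like growth factors, was at 1.46, 1.30 and 1.33 FPKM in shNC and at 8.42, 6.70 and 7.89 FPKM in shScamp1 libraries and rose by 2.40 on the log2 scale (limma adjusted p = 0.000203). F3, the tissue factor that starts coagulation, was at 12.0, 13.0 and 12.6 FPKM in shNC and at 52.1, 41.7 and 49.5 FPKM in shScamp1 libraries and rose by 1.92 on the log2 scale (limma adjusted p = 0.000273). In these 3 genes the lowest shScamp1 value was more than 3 times the highest shNC value.

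ARHGAP29, a RhoA-inactivating protein, rose with a log2 fold change of 1.10 (adjusted p = 0.00407 by limma), and MYOF, a membrane-repair protein, with 0.74 (adjusted p = 0.0115). ARHGAP29 passed in all 6 fits that left out 1 library and MYOF in 3 of them, its call being lost without any of the shNC libraries (highest adjusted p = 0.0587 by limma). PTPN14, a phosphatase that binds YAP, had a log2 fold change of 0.81 and did not pass (adjusted p = 0.0631), and it passed without shScamp1 replicate 2 (0.54, adjusted p = 0.00733). GADD45A, AREG, TGFB2, NUAK2, FJX1, ARHGEF17 and BIRC5 had log2 fold changes from -0.36 to -0.10, none of which passed. AXL and INHBA had at most 9 reads in a library and were not tested.

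Cytoskeletal genes controlled by MRTF and SRF, which share inducers such as actin tension with YAP, were listed for comparison. Of 12 genes 10 were tested and only FHL2, a LIM-domain cofactor, passed, at 9.78 ± 0.260 FPKM in shNC and 20.1 ± 2.84 FPKM in shScamp1 cells (SD, n = 3 each), higher by 1.02 on the log2 scale (limma adjusted p = 0.00309). That is 1 of 10, beside 14.0% of all genes, and the median log2 fold change was 0.03. Without shScamp1 replicate 2, 3 of the 10 passed as higher and 3 as lower, beside 14.9% and 13.4% of all genes in that fit.

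**Figure D5:**
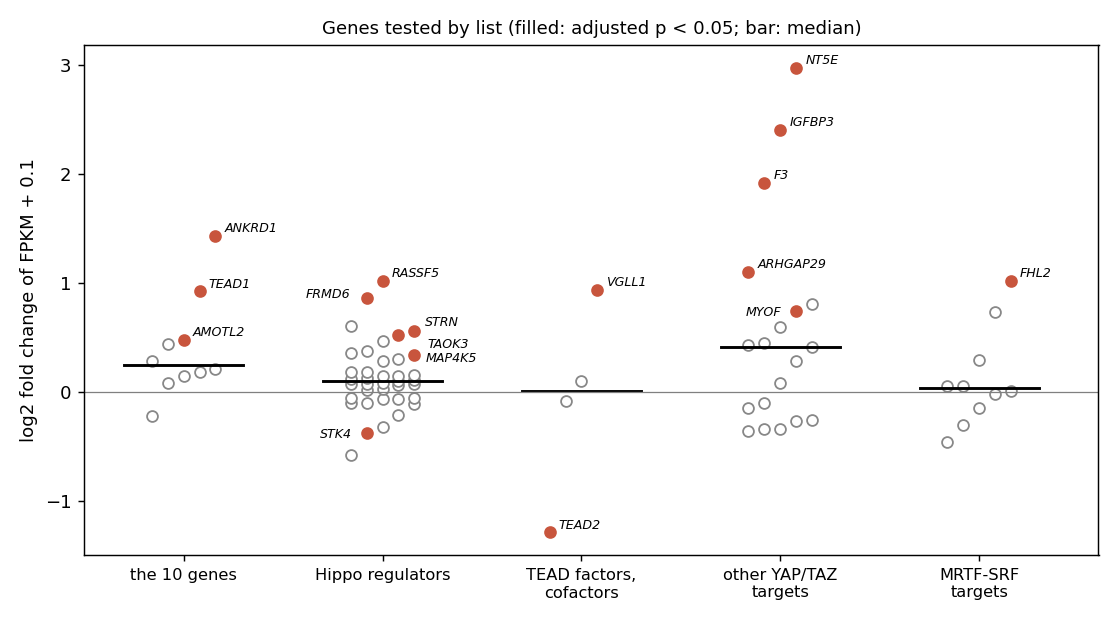
Log2 fold change of FPKM + 0.1 (y axis) of every gene tested in 5 lists (x axis); filled points passed an adjusted p of 0.05, and bars are medians. The calls among further YAP and TAZ targets reach from 0.74 (MYOF) to 2.97 (NT5E), and TEAD2 (-1.29) is the only filled point below -0.5.

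Genes that overlap the 10 genes on the chromosome could share reads with them, as the counting is not stated to use strand. Of the 10 genes 7 had an overlapping gene in the table, 14 in all and 8 of them on the opposite strand. None of these had more than 14 reads in a library. AL132780.3, a protein-coding gene on the same strand as AJUBA, had no reads. These counts cannot show whether reads lying on both genes were dropped from the 10 genes. The antisense gene AL133346.1, which overlaps CTGF, had at most 1 read, and TEAD4, CYR61 and ANKRD1 had no overlapping gene.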

How the data were processed

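RNA of 3 shNC and 3 shScamp1 libraries of NCI-N87 cells was sequenced. The authors deposited FPKM per gene and library, with gene length and coordinates; all 58735 genes had the coordinates of GENCODE 29. The submitters' processing notes list hg38, HISAT2 2.0.5, featureCounts 1.5.0-p3 and DESeq2 1.20.0 without roles. Multiplied by gene length, 100% of the values above 0 were whole numbers of a step particular to the library (tolerance 0.01), and reads were recovered from this.

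Groups were taken from the sample titles. Differences were computed in R 4.3.3 with limma 3.58.1 (lmFit, eBayes with trend) on log2(FPKM + 0.1) for genes that averaged 0.5 FPKM or more, after the code was tested on simulated data. Ratios and shares were compared by exact permutation tests (scipy 1.17.1). The genes named were the 10 genes, SCAMP1, relatives of the 10 genes, marker genes, overlapping genes and, per list, up to 8 genes that passed; any further gene was picked with its values known. The members and lists were chosen with earlier results of these data known. Alternatives covered pseudocount, filter, biotype, scaling, trend, replicate block, voom on recovered reads, leaving out each library and, chosen after seeing the data, gene length.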

Additional observations from a re-analysis of the deposited data

How the results depend on the processing

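Across 32 named genes and 17 alternative settings, 539 log2 fold changes were recomputed: 478 kept direction and side of the threshold, 53 lost the call, 7 gained it, and 1 reversed, AMOT, which ranged from -0.17 without shScamp1 replicate 2 to 0.21 without shScamp1 replicate 1. AMOTL2 passed under all 17 settings, TEAD1 under 10 of 17 and ANKRD1 under 7 of the 14 that tested it; ANKRD1 did not reach a filter of 1 FPKM. Of the 10 genes, 3 passed in the main setting, 1 without a filter on low values and 1 to 6 on leaving out single libraries. Of all genes tested, 14.0%, 4.81% and 5.25% to 28.3% passed in these settings, so the background moved as well.

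Leaving out each library in turn gave 817 to 4374 genes that passed over all genes tested, 2 to 9 Hippo regulators, 4 to 6 further YAP and TAZ targets and 1 to 6 MRTF-SRF targets; the extremes of 4374, 9 and 6 came without shScamp1 replicate 2. MRTF-SRF targets that passed numbered 3 with the gene-length trend removed or with quantile normalization, and 2 with protein-coding genes alone or with voom. In these settings 18.2%, 14.9%, 22.8% and 17.7% of all genes tested passed, in this order. The difference in summed TEAD level ranged from -1.35 (without shScamp1 replicate 2) to 4.14 FPKM, and that in the TEAD3 share from -0.24 to 2.53 percentage points, with -0.24 and -0.10 without shScamp1 replicates 1 and 3. With a pseudocount of 1, 248 genes met both criteria (adjusted p and a log2 fold change beyond 1), against 492 in the main setting. On adjusted p alone 2202 genes passed with a pseudocount of 1, against 2177. A larger pseudocount lowers the log2 fold change of weakly expressed genes, for ANKRD1 from 1.43 to 0.55. With the replicate number as a block, 958 genes (6.16% of those tested), 1 of the 10 genes (AMOTL2) and 2 Hippo regulators passed. Deviations of same-numbered libraries from their group means correlated at -0.089, 0.084 and 0.137, and those of different-numbered libraries at -0.157 to 0.141. With 3 libraries per group, these correlations cannot show whether the numbers pair the libraries. ANKRD1 (5 to 27 reads per library) and CTGF (38 to 50) had the fewest reads of the 10 genes.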
